A study of Mus musculus with 58 samples.

Results

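The genes described here are 36 members of the WNT signalling pathway, out of 24077 genes in the deposited count table. They were chosen by symbol and not by a measured value, but with earlier results of these data known. All 36 symbols were found. They comprise 19 WNT ligands, 10 Frizzled receptors, the 2 co-receptors Lrp5 and Lrp6, the 3 secreted antagonists Dkk1, Sfrp1 and Sfrp2, and the 2 feedback genes Axin2 and Lef1. The RNA came from 3 mouse stages: the fully grown oocyte (FGO), the morula, and the extraembryonic ectoderm (ExE), a trophoblast tissue. Samples differed in Pcgf1 and Pcgf6, which encode subunits of variant Polycomb repressive complexes that ubiquitinate histone H2A. FGO KO oocytes were Pcgf1/6 double knockouts of strain B6.129 (2 libraries), and FGO CTR oocytes were wild type of the same strain (2 libraries). Morula matKO (2 libraries) and ExE matKO (4 libraries) were Pcgf1/6 double maternal knockouts from the B6.129 x PWK cross, and morula CTR and ExE CTR (2 libraries each) were wild type from that cross. The labels name no recombinase driver, no age and no separate animals behind the replicates, so p-values measure only the spread between these libraries, which may be technical.

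WNT ligands are secreted, lipid-modified proteins that bind a Frizzled receptor together with the co-receptor LRP5 or LRP6. Binding keeps the destruction complex from degrading β-catenin, which then acts with TCF and LEF factors on target genes such as Axin2. DKK1 blocks the co-receptors, SFRP proteins bind WNTs outside the cell, and AXIN2 feeds back by strengthening the destruction complex. In mouse stem cells many genes of the ligand and receptor families are known Polycomb targets with CpG-rich promoters, and Wnt7b is known to be needed in the trophoblast of the mouse placenta.

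Promoters are shown for 4 members on which the results below turn: Wnt7a and Fzd7, which rose in FGO KO oocytes, Fzd4, the member with the E2F6 motif, and Fzd1, the receptor with the widest difference in ExE matKO. Each is the RefSeq window of 300 bases on GRCm38.p6, from 250 bases before to 50 bases after the transcript start, written on the strand of the gene with every CpG dinucleotide in capitals. The Wnt7a window lies at chr6:91411304-91411603 on the minus strand and holds 42 CpGs. The Fzd7 window, at chr1:59481897-59482196 on the plus strand, has 24, the Fzd4 window, at chr7:89404116-89404415 on the plus strand, has 32, and the Fzd1 window, at chr5:4758167-4758466 on the minus strand, has 16.
Wnt7a: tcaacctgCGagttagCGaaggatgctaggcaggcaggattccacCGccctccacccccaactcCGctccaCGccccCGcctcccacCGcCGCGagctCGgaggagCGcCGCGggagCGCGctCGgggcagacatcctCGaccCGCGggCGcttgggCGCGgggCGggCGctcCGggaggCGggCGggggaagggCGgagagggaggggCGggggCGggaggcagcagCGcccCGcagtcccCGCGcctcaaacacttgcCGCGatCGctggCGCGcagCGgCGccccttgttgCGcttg
Fzd7: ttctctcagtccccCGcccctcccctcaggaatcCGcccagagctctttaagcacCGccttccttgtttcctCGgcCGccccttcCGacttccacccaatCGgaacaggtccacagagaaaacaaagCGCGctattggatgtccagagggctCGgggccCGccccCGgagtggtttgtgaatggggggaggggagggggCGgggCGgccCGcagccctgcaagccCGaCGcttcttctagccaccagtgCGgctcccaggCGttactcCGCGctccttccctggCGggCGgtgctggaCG
Fzd4: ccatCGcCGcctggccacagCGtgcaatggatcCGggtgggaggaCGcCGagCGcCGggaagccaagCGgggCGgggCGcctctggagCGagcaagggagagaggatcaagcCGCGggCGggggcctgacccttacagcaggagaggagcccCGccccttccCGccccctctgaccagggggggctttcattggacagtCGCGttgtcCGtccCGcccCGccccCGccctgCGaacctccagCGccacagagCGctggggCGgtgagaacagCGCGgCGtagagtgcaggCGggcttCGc
Fzd1: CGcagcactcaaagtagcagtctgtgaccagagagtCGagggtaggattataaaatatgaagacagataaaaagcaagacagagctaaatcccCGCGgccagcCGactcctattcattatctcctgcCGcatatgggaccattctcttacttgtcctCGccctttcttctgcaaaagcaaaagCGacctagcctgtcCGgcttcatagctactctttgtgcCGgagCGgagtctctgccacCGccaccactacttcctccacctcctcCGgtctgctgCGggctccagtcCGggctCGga

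The member promoters as a family were CpG-rich. The table of windows matched 25 of the 36 members with 31 windows, whose median was 26 CpGs (quartiles 17 and 42), against a median of 7 CpGs (quartiles 3 and 20) over all 32851 windows. Among members with a single window, the CpG count ran from 58 in Wnt9a and 53 in Fzd9 down to 9 in Dkk1 and 6 in Wnt8b. Motifs were searched on both strands and do not overlap one another in letters. GCGGGAA, the sequence bound by E2F6 beside PCGF6, stood in 4.6% of all windows and among members only in Fzd4, on the minus strand 92 bases before the start. CACGTG, the E-box of MAX and MGA, stood in 7.15% of all windows and in those of Fzd9, Lef1 and Wnt9a. CTTTGAT, the TCF/LEF core, stood in 3.73% of all windows and in windows of Wnt11 and Wnt5b. A match describes the letters of a window and is not a bound site.

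Levels are given as CPM, the counts of a gene scaled to the library total. FGO libraries held 19805264 to 26364085 counts, morula libraries 1299715 to 1685510 allele-assigned counts and ExE libraries 3397585 to 4361832. At these depths 3 counts, the floor for detection, were worth 0.114 to 0.151 CPM in oocytes, 1.78 to 2.31 CPM in morulae and 0.688 to 0.883 CPM in ExE. Pcgf1 was at 34.9 and 22.8 CPM in FGO KO, against 1406 and 1100.2 CPM in FGO CTR, and had at most 4 counts in any embryo library, where it checks nothing. Pcgf6 was at 177 and 219.7 CPM in FGO KO and at 396 and 429 CPM in FGO CTR. All 10 oocyte markers were detected in every FGO library. Their summed level was 14144 and 19818 CPM in FGO KO and 19853 and 19477 CPM in FGO CTR, so FGO KO replicate 1 stood apart. Of 12 markers of trophoblast stem cells and ExE, 11 were detected in every ExE matKO library and 10 in every ExE CTR library, and Bmp4 was at 0. Of 8 markers of pluripotent cells of the morula, 6 were detected in every morula matKO library and 6 in every morula CTR library. Their summed level was 2372 and 2735 CPM in morula matKO and 2178 and 2416 CPM in morula CTR, and all 8 were also detected in every FGO library. Pou5f1, a gene of that list, was at 0 in morulae, where a transcript without strain variants cannot be assigned to a parent whatever its level. ExE matKO replicate 3 stood apart with 35.8% maternal reads, against 50.6% to 52.6% in the other embryo libraries.

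The sets of WNT transcripts detected at each stage overlapped in part, and detection also depends on depth and allele assignment. At least 3 counts in every library were found for 20 members in FGO KO and 16 in FGO CTR, for 9 in morula matKO and 10 in morula CTR, and for 11 in ExE matKO and 12 in ExE CTR. Wnt1, Wnt9b and Wnt16 had 0 counts in all 14 libraries, and Wnt2, Wnt8b, Wnt10b and Fzd10 stayed under 3 counts in every library. Oocytes held reads of Wnt7a, Fzd3, Fzd7, Lrp5, Lrp6, Dkk1, Axin2 and Lef1, morulae of Wnt6, Wnt7b, Fzd3, Fzd5, Lrp5, Lrp6 and Sfrp1, and ExE of Wnt6, Wnt7b, Wnt11, Fzd3, Fzd7, Lrp5 and Lrp6. CPM is not corrected for transcript length, so no order between genes is read from it. FGO counts cover whole genes and embryo counts only assigned reads, so oocyte and embryo levels were not tested against each other.

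**Figure D1:**
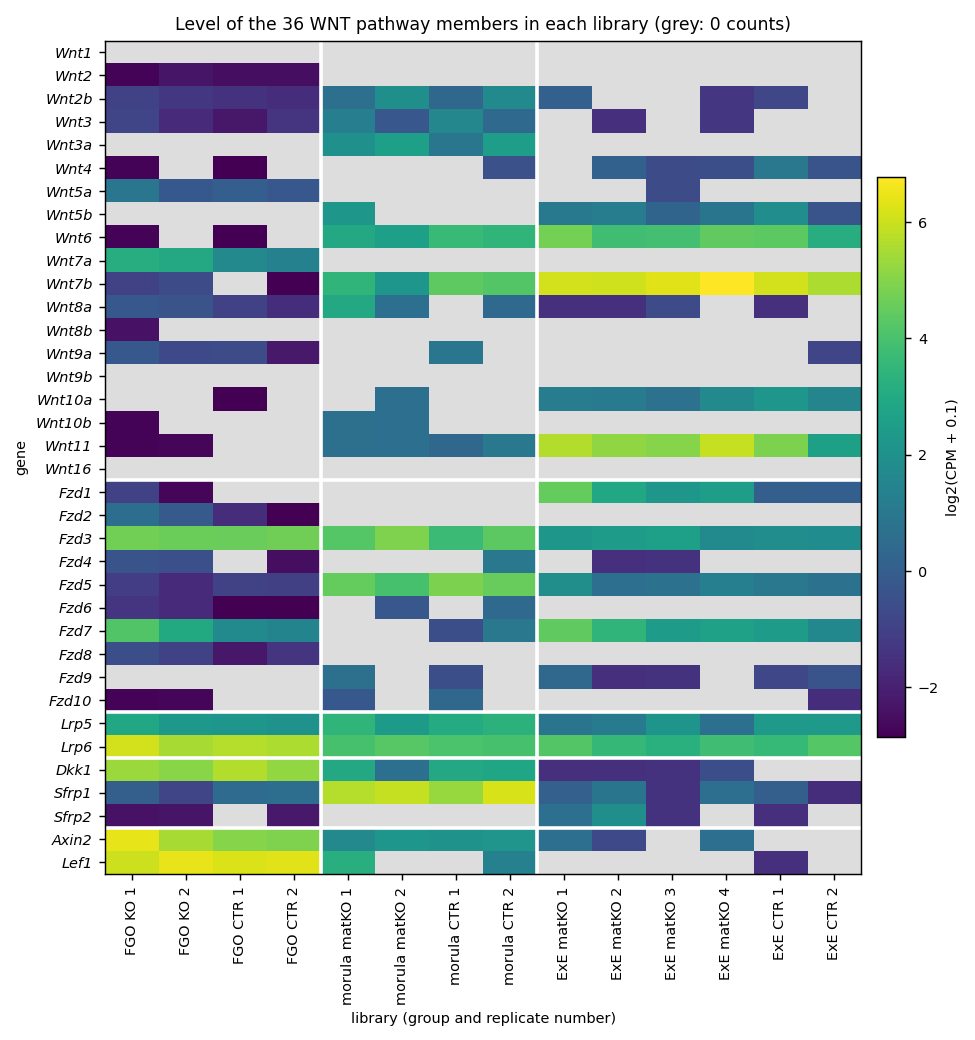
Level of each of the 36 members (rows, grouped as ligands, receptors, co-receptors, antagonists and feedback genes) in each of the 14 libraries (columns), as log2(CPM + 0.1), with 0 counts in grey. Wnt7a and Fzd2 have reads only in oocytes, Wnt3a only in morulae, and Wnt11 is brightest in ExE.

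The knockout changed few of these genes past the threshold of an adjusted p under 0.05. In FGO KO against CTR, Wnt7a and Fzd7 rose and 0 members fell in edgeR's test, with 14 members passing the filter on low counts. Over all 13459 genes tested there, 5.35% rose and 1.87% fell, 7.22% in all. Both KO libraries lay above both CTR libraries in 32.1% of those genes and below them in 18.1%. In morula matKO against CTR 0 of 8 tested members were called by edgeR, 0 by DESeq2 and 1 had an unadjusted p under 0.05. Of all 9063 genes there, 0.132% were called, 19.8% had an unadjusted p under 0.05, and the matKO libraries lay above CTR in 23.5% and below in 29.5%. In ExE matKO against CTR edgeR called 0 of 9 tested members, as it called 0 of all 8386 genes (0% of them), while 3 members had an unadjusted p under 0.05 and DESeq2 called 1. Of all genes there, 13.8% had an unadjusted p under 0.05, and all matKO libraries lay above CTR in 12.5% and below in 11.3%. Members near 0 in CTR could enter a test only through higher counts in the knockout. Wnt6, Wnt7b, Lrp5 and Dkk1 in morulae, and Wnt10a and Lrp5 in ExE, passed the filter on low counts only through CTR. Those tested therefore do not stand for the 36.

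**Figure D2:**
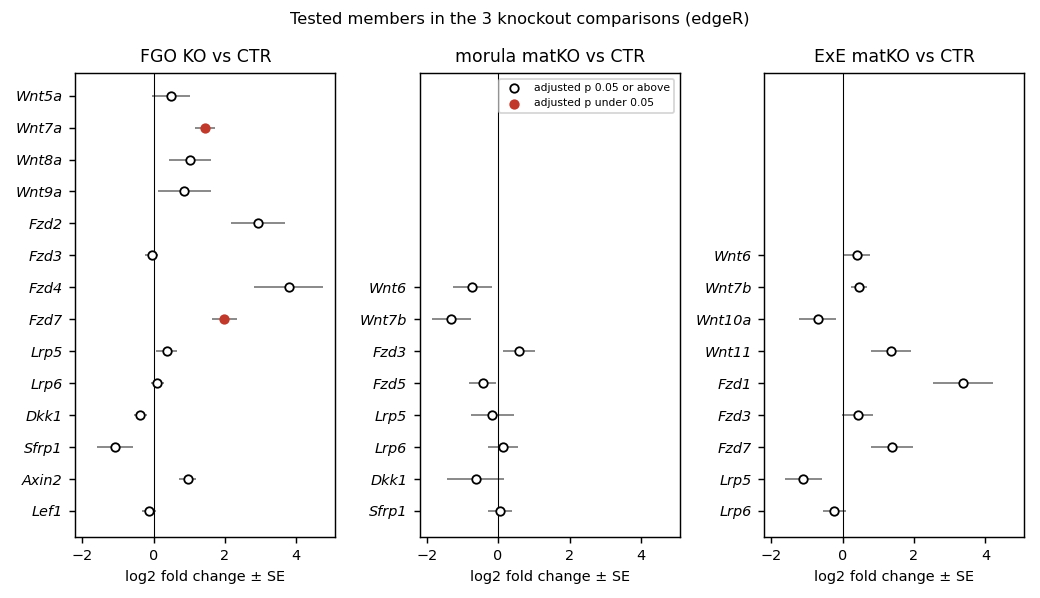
Log2 fold change with its standard error from edgeR for every tested member (14 in FGO, 8 in morulae, 9 in ExE), knockout over CTR. Filled points, Wnt7a at 1.45 and Fzd7 at 1.98 in FGO, have an adjusted p under 0.05, and open points do not.

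Among the ligands, Wnt7a, a ligand known from limb patterning and the female reproductive tract, was the one that passed the test in oocytes. It had 8.68 and 7.73 CPM in FGO KO, from 191 and 153 counts, against 3.11 and 2.49 CPM in FGO CTR, from 82 and 64 counts. Both KO libraries lay above both CTR libraries. The log2 fold change was 1.45 ± 0.28 (SE, n = 2 each; edgeR adjusted p = 0.0178). Without FGO CTR replicate 2 the call was lost (edgeR adjusted p = 0.0959). Wnt7a had 0 counts in all embryo libraries, where an unassignable transcript would give the same.

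Wnt7b, a ligand close in sequence to Wnt7a, was called in no knockout comparison, but was called in the difference of the morula and FGO effects. In oocytes it was near silent, with 9 and 11 counts in FGO KO and 0 and 1 counts in FGO CTR, and it did not pass the filter. The ratio of these levels was 24.9 (95% exact interval 3.98 to 1033, counting error only). In morulae it had 10.8 and 4.45 CPM in matKO, against 20.8 and 18.3 CPM in CTR, a log2 fold change of −1.31 ± 0.55 (SE, n = 2 each) that did not pass the test (edgeR adjusted p = 0.242), and was −2.08 without matKO replicate 1 and −0.81 without matKO replicate 2. Both matKO morula libraries lay below both CTR libraries. The difference between these effects, morula minus FGO, was −5.36 ± 1.16 on the log2 scale (edgeR interaction, adjusted p = 0.032), and Wnt7b was the 1 member called of 16 tested, where 2.62% of 14719 genes were called. That call rests on few oocyte counts and was lost on leaving out any of the 4 FGO libraries, morula matKO replicate 2 or either morula CTR library, with edgeR adjusted p of 0.0561 to 0.178.

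In ExE, Wnt7b had 68.4, 67.0, 80.0 and 109 CPM in the 4 matKO libraries and 68.3 and 47.7 CPM in the 2 CTR libraries. The groups overlapped, and the log2 fold change of 0.46 ± 0.23 (SE) did not pass (edgeR adjusted p = 0.397). The difference of the ExE and morula effects of Wnt7b was 1.72 ± 0.50 on the log2 scale (edgeR interaction, adjusted p = 0.171). In that test of the difference edgeR called 0 of 16 members, DESeq2 called 0, and 4 had an unadjusted p under 0.05. Of 11182 genes in the same edgeR test 0.340% were called and 13.2% had an unadjusted p under 0.05.

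Wnt11, a ligand known for signalling without β-catenin in cell movements, was an ExE transcript. It had 208, 144, 120 and 206 counts in ExE matKO, against 122 and 26 counts in ExE CTR (means of 45.0 ± 13.1 and 17.4 ± 16.2 CPM; SD, n = 4 and 2). All 4 matKO libraries lay above both CTR libraries, which themselves lay far apart. Its log2 fold change of 1.36 ± 0.56 (SE) did not pass (edgeR adjusted p = 0.348), and was 0.65 without ExE CTR replicate 2 and 2.83 without ExE CTR replicate 1. Wnt6, another trophoblast ligand, had 110, 56, 54 and 72 counts in ExE matKO and 85 and 38 counts in ExE CTR, with overlapping groups and a log2 fold change of 0.39. In morulae Wnt6 had 7.69 and 5.94 CPM in matKO, against 12.5 and 10.7 CPM in CTR, a log2 fold change of −0.72 ± 0.54 (SE) that did not pass (edgeR adjusted p = 0.493).

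The remaining ligands were low. Wnt3a, a classical β-catenin ligand, had 3.85 and 5.94 CPM in morula matKO and 1.78 and 5.67 CPM in morula CTR, and 0 counts in oocytes and ExE. Wnt10a ranged from 1.62 to 3.24 CPM in ExE matKO, against 4.50 and 2.75 CPM in ExE CTR, and Wnt5b had 4 to 9 counts in ExE matKO, against 15 and 3 counts in ExE CTR. In oocytes Wnt5a had 1.77 and 0.757 CPM in FGO KO and 0.910 and 0.739 CPM in FGO CTR, with overlapping groups. Wnt8a had 0.772 and 0.656 CPM in FGO KO against 0.417 and 0.233 CPM in FGO CTR, a log2 fold change of 1.02 that did not pass (edgeR adjusted p = 0.375). In morulae Wnt8a had 10 and 2 counts in matKO (7.69 and 1.48 CPM), against 0 and 2 counts in CTR (0 and 1.26 CPM). The groups did not overlap, the ratio was 7.42 (95% exact interval 1.65 to 68.2), and the gene did not pass the filter. Wnt5b had 6 and 0 counts in morula matKO and 0 in morula CTR. Wnt2b, Wnt3, Wnt4 and Wnt9a stayed at or below 3.71 CPM in every library.

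Of the receptors, Fzd7, a Frizzled known from pluripotent cells, passed the test in oocytes. It had 17.5 and 7.88 CPM in FGO KO, from 386 and 156 counts, against 3.15 and 2.72 CPM in FGO CTR, from 83 and 70 counts. Both KO libraries lay above both CTR libraries, though the KO libraries differed more from each other than the CTR libraries did. The log2 fold change was 1.98 ± 0.35 (SE, n = 2 each; edgeR adjusted p = 0.0127), and ranged from 1.43 to 2.37 with 1 library left out, lowest without FGO KO replicate 1, the library with the lower sum of oocyte markers. The part of that library's marker level in the result was not tested. In ExE Fzd7 had 21.3, 10.7, 5.40 and 6.18 CPM in matKO, against 5.21 and 2.98 CPM in CTR. No matKO library lay as low as the CTR libraries, but replicates 3 and 4 came close, and the log2 fold change of 1.39 ± 0.59 (SE) did not pass (edgeR adjusted p = 0.338). In morulae it had 0 counts in both matKO libraries and 1 and 3 counts in CTR.

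Fzd2 and Fzd4, receptors of which Fzd4 is known from vessel growth in the retina, were low in oocytes and did not pass the threshold. Fzd2 had 32 and 16 counts in FGO KO (1.45 and 0.808 CPM) and 6 and 1 counts in FGO CTR (0.228 and 0.0389 CPM). Its log2 fold change was 2.92 ± 0.76 (SE; edgeR adjusted p = 0.0555), and with 1 library left out ranged from 2.18 without CTR replicate 2 (adjusted p = 0.256) to 4.56 without CTR replicate 1 (adjusted p = 0.0233). Fzd4 had 15 and 12 counts in FGO KO, against 0 and 2 counts in FGO CTR. The log2 fold change of Fzd4 was 3.79 ± 0.97 (SE; edgeR adjusted p = 0.0532), and the ratio of its levels was 16.8 (95% exact interval 4.23 to 146). The fold change of Fzd4 was 2.85 without CTR replicate 1 (edgeR adjusted p = 0.287) and 6.85 without CTR replicate 2 (adjusted p = 0.0558). DESeq2 called neither gene (adjusted p = 0.0739 for Fzd2 and 0.116 for Fzd4). For both genes each KO library lay above each CTR library. Both were too low in CTR to pass the filter on low counts there, and entered the test only through FGO KO. The receptors Fzd1, Fzd6 and Fzd8 had few reads and were not tested there. Fzd1 had 9 and 1 counts in FGO KO and 0 in FGO CTR, at least 1.99-fold higher in mean CPM if each CTR library is set to 3 counts, Fzd6 had 6 and 4 against 1 and 1, and Fzd8 had 13 and 8 against 3 and 7.

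**Figure D3:**
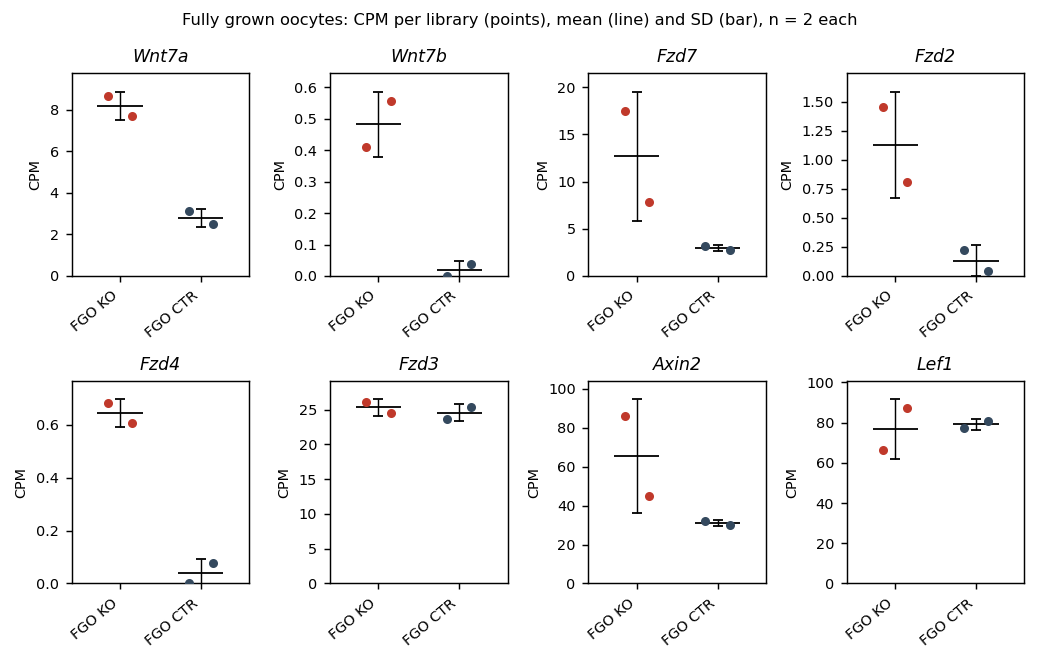
CPM of 8 members in the FGO KO and FGO CTR libraries (points; line, mean; bar, SD; n = 2 each), with an axis of its own from 0 for each gene. Wnt7a, Wnt7b, Fzd7, Fzd2, Fzd4 and Axin2 have both KO libraries above both CTR libraries, while Fzd3 and Lef1 overlap.

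Fzd1, a Frizzled of the β-catenin branch, had the largest fold change of the 9 members tested in ExE matKO against CTR. It had 22.7, 7.49, 4.59 and 5.59 CPM in ExE matKO, from 93, 30, 17 and 19 counts, against 0.948 and 0.917 CPM in ExE CTR, from 4 and 4 counts. All 4 matKO libraries lay above both CTR libraries, and replicate 1 lay far above the other matKO libraries. The log2 fold change of 3.37 ± 0.83 (SE) did not pass (edgeR adjusted p = 0.182), and was 2.61 without matKO replicate 1. DESeq2 called it (adjusted p = 0.00306), in a test that called 212 genes. With 4 and 4 counts in CTR, Fzd1 passed the filter on low counts only through matKO, where it was high.

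Summed levels of markers of several cell types also differed between the ExE groups. The summed level of 10 epiblast and nascent mesoderm markers was 20.3 to 59.6 CPM in ExE matKO and 0.688 to 7.82 CPM in ExE CTR, with Otx2, Pou5f1, Fgf8 and Mesp1 at 0 in both groups. That of 12 visceral endoderm markers was 9.45 to 40.8 CPM in ExE matKO and 2.29 to 4.27 CPM in ExE CTR, with Apoa1 and Hnf4a at 0 in both. The 9 decidua and stroma markers summed to 0.540 to 18.8 CPM in ExE matKO and 0.459 to 0.474 CPM in ExE CTR. Only 1 epiblast, 2 visceral endoderm and 0 decidua markers had at least 3 counts in every ExE matKO library. In ExE CTR those numbers were 0, 2 and 0, and 8, 9 and 6 markers had no counts. The sums of these lists therefore do not stand for all their genes. The 10 ectoplacental cone markers summed to 448 to 2439 CPM in ExE matKO and 3022 to 5481 CPM in ExE CTR. Among the trophoblast lists, the 12 markers of trophoblast stem cells and ExE summed to 2339 to 3466 CPM in ExE matKO and 1613 to 2222 CPM in ExE CTR, while the 8 trophectoderm markers summed to 2699 to 5449.7 CPM in ExE matKO and 7919 to 8352 CPM in ExE CTR. The 9 blood markers summed to 92.9 to 245 CPM in ExE matKO and 294 to 351 CPM in ExE CTR, with all globin genes of the list at 0. Replicate 1 of ExE matKO, with the highest Fzd1 and Fzd7 levels, also had the highest epiblast, visceral endoderm and decidua sums and the lowest ectoplacental cone sum. Wnt7b and Wnt11 were highest in replicate 4, at 109 and 60.6 CPM. The epiblast, visceral endoderm and decidua sums of replicate 4 were 21.8, 12.7 and 0.883 CPM. The part of these markers in the results for Fzd1, Fzd7, Wnt7b and Wnt11 was not tested. In bulk tissue, fewer cells of a type and less RNA per cell cannot be told apart.

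Fzd5 and Fzd3 were the receptors with reads in morulae. Fzd5, known from mouse placental and eye development, had 22.3 and 15.6 CPM in morula matKO, against 29.1 and 23.3 CPM in morula CTR. Both matKO libraries lay below both CTR libraries, and the log2 fold change of −0.43 ± 0.38 (SE, n = 2 each) did not pass (edgeR adjusted p = 0.577). Fzd3, known from axon tract formation, had 26.2 and 24.5 CPM in FGO KO and 23.7 and 25.4 CPM in FGO CTR, and 18.5 and 29.7 CPM in morula matKO and 13.1 and 20.2 CPM in morula CTR. Its groups overlapped at both stages, with log2 fold changes of −0.05 ± 0.18 in FGO and 0.58 ± 0.44 in morulae (SE). In ExE Fzd5 ranged from 1.50 to 3.67 CPM in matKO, against 1.90 and 1.60 CPM in CTR. Trophectoderm markers were lower in the morula libraries in which Wnt7b, Wnt6 and Fzd5 were lower: all 8 were detected, and summed to 1330.3 and 1537 CPM in matKO and to 2108 and 2326 CPM in CTR. The part of this difference in those values was not tested.

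The co-receptors did not change past the threshold at any stage. Lrp6 had 70.0 and 45.6 CPM in FGO KO and 51.9 and 48.0 CPM in FGO CTR, 15.4 and 19.3 CPM in morula matKO and 16.6 and 15.7 CPM in morula CTR, and 9.45 to 18.3 CPM in ExE matKO and 11.9 and 18.6 CPM in ExE CTR. Its log2 fold changes were 0.10 ± 0.18, 0.14 ± 0.41 and −0.23 ± 0.33 (SE) at the 3 stages, and the groups overlapped at each. Lrp5 had 1.71, 2.00, 4.32 and 1.47 CPM in ExE matKO, against 4.98 and 5.04 CPM in ExE CTR, a log2 fold change of −1.10 ± 0.52 (SE) that did not pass (edgeR adjusted p = 0.379). All 4 matKO libraries lay below both CTR libraries for Lrp5.

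None of the antagonists changed past the threshold in a knockout comparison. Dkk1 had 39.6 and 33.1 CPM in FGO KO and 50.6 and 37.2 CPM in FGO CTR, with overlapping groups and a log2 fold change of −0.37 ± 0.19 (SE; edgeR adjusted p = 0.303). Sfrp1 in oocytes had 0.954 and 0.454 CPM in KO, against 1.33 and 1.44 CPM in CTR, a log2 fold change of −1.08 ± 0.50 (SE; edgeR adjusted p = 0.256). In morulae Sfrp1 had 52.3 and 60.8 CPM in matKO and 39.2 and 73.1 CPM in CTR, and Dkk1 had 7.69 and 1.48 CPM in matKO and 7.71 and 6.93 CPM in CTR, and the groups of both genes overlapped. Sfrp2 had 6, 15, 1 and 0 counts in ExE matKO, against 1 and 0 counts in ExE CTR, and at most 3 counts in any other library.

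Most reads of the feedback genes came from oocytes, whose counts cover whole genes at greater depth than the allele-assigned embryo counts. Axin2 had 86.2 and 45.0 CPM in FGO KO, against 32.2 and 29.8 CPM in FGO CTR. Both KO libraries lay above both CTR libraries, and the log2 fold change of 0.96 ± 0.24 (SE, n = 2 each) missed the threshold (edgeR adjusted p = 0.0552), while DESeq2 called it (adjusted p = 0.00563). Without FGO KO replicate 1 the log2 fold change of Axin2 was 0.54 (edgeR adjusted p = 0.114), and without FGO KO replicate 2 it was 1.27 (adjusted p = 0.00296). Lef1, a nuclear partner of β-catenin, had 66.4 and 87.4 CPM in FGO KO and 77.3 and 80.9 CPM in FGO CTR, a log2 fold change of −0.12 ± 0.20 (SE) with overlapping groups. In morulae Axin2 had 3.08 and 4.45 CPM in matKO and 4.15 and 4.41 CPM in CTR, and Lef1 had 12 and 0 counts in matKO and 0 and 4 counts in CTR. In ExE Axin2 had 6, 2, 0 and 5 counts in matKO and 0 in CTR. The summed level of 13 granulosa cell markers was 82.3 to 90.5 CPM in FGO KO and 70.9 to 80.8 CPM in FGO CTR, with Amh at 0 in KO. That of 10 ectoplacental cone markers was 213 to 293 CPM in FGO KO and 87.9 to 90.4 CPM in FGO CTR, with Prl3d1, Prl2c2, Hand1 and Ctsq at 0 in both. The part of these markers in the oocyte results was not tested.

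Between the 2 wild-type embryo stages, in ExE CTR against morula CTR, Wnt7b and Wnt11 rose and Sfrp1, Dkk1, Fzd5 and Fzd3 fell. These were 6 of 9 tested members, a share near that of all genes, since 67.5% of 9977 genes were called there, 27.8% up and 39.7% down, and where both ExE libraries lay above both morula libraries in 21.6% of genes and below in 63.8%. TMM scaling moved all genes of this comparison by 0.67 on the log2 scale relative to library totals, and the fold changes are on the TMM scale. Wnt7b had 68.3 and 47.7 CPM in ExE CTR and 20.8 and 18.3 CPM in morula CTR (log2 fold change 2.23 ± 0.29, SE; edgeR adjusted p = 3.2e-05). Wnt11 had 28.9 and 5.96 CPM in ExE CTR, against 1.19 and 1.89 CPM in morula CTR (4.11 ± 0.89; edgeR adjusted p = 0.00235), and its log2 fold change was 2.64 without ExE CTR replicate 1 and 4.82 without ExE CTR replicate 2. The 2 groups overlapped for neither ligand.

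Sfrp1 fell to 0.948 and 0.229 CPM in ExE CTR, against 39.2 and 73.1 CPM in morula CTR (log2 fold change −5.84 ± 0.60, SE; edgeR adjusted p = 5.0e-06), and −6.99 on that scale without ExE CTR replicate 1 and −5.19 without ExE CTR replicate 2. Dkk1 had 0 counts in both ExE CTR libraries, against 13 and 11 counts in morula CTR, at least 10.5-fold lower in mean CPM if each ExE CTR library is set to 3 counts (edgeR adjusted p = 2.8e-04), and it did not pass the filter when either morula CTR library was left out. Fzd5 had 1.90 and 1.60 CPM in ExE CTR and 29.1 and 23.3 CPM in morula CTR (−3.21 ± 0.50; edgeR adjusted p = 1.3e-04). Fzd3 had 3.56 and 3.44 CPM in ExE CTR and 13.1 and 20.2 CPM in morula CTR (−1.57 ± 0.51; edgeR adjusted p = 0.0168), a call lost in DESeq2 (adjusted p = 0.0751) and in edgeR without morula CTR replicate 2 (adjusted p = 0.15). For these 4 genes every ExE CTR library lay below every morula CTR library.

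**Figure D4:**
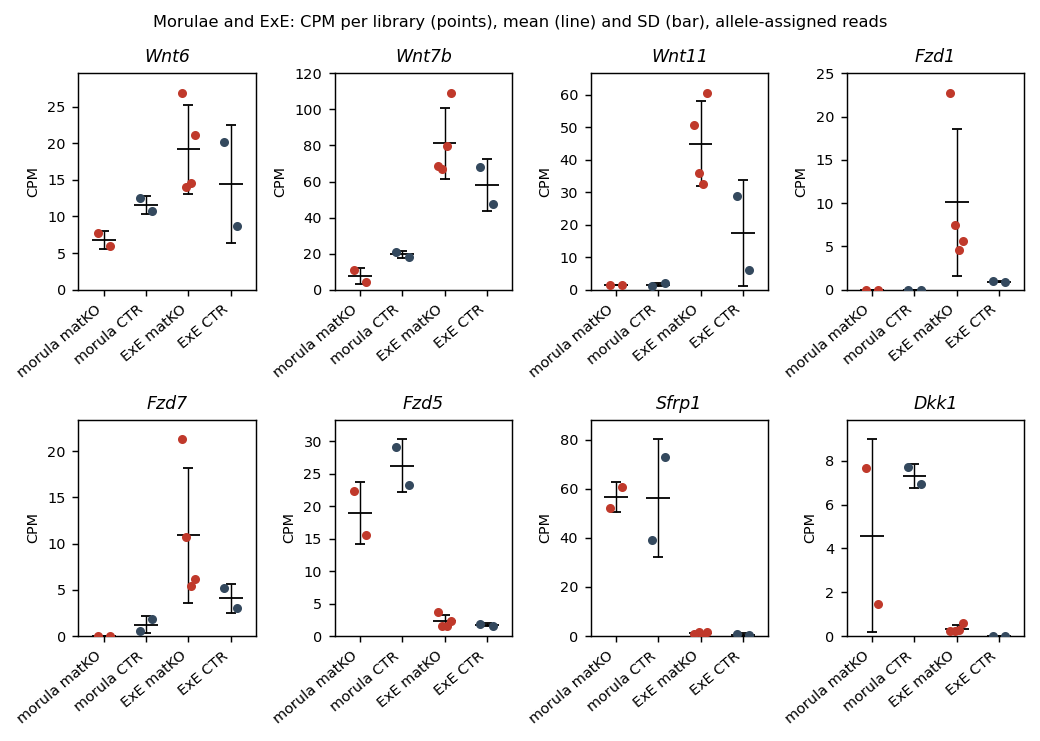
CPM of 8 members in morula and ExE libraries from allele-assigned reads (points; line, mean; bar, SD; n = 4 in ExE matKO and 2 in each other group), with an axis of its own from 0 for each gene. Wnt7b and Wnt11 are higher in ExE, Sfrp1, Dkk1 and Fzd5 in morulae, and Fzd1 stands highest in ExE matKO replicate 1 at 22.7 CPM.

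Reads of the 2 parental alleles were compared in the embryos, where the mother was B6.129 and the father PWK, so parent and strain cannot be told apart. For the shift between alleles in matKO, edgeR called 0 of 5 tested members in morulae and 0 of 6 in ExE, where it called 0.0393% and 0.0729% of all genes. At an unadjusted p under 0.05 there were 0 members at either stage, beside 8.20% of genes in morulae and 6.34% in ExE. Lrp6 was read almost entirely from the maternal allele, with 46 of 46 reads in morula matKO (100.0%) and 51 of 53 in morula CTR (96.2%), and 202 of 204 in ExE matKO (99.0%) and 130 of 131 in ExE CTR (99.2%). Fzd3 had 71.9% maternal reads in morula matKO and 74.1% in morula CTR, and 69.9% in ExE matKO and 73.3% in ExE CTR. Single libraries of Fzd3 in ExE ran from 54.5% to 90.5% in matKO and had 86.7% and 60.0% in CTR. Fzd5 had 13.8% and 52.4% maternal reads in the morula matKO libraries and 36.7% and 18.9% in the morula CTR libraries. Its groups overlapped, and its replicates lay far apart.

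Wnt11 had 28.8%, 41.0%, 16.7% and 28.6% maternal reads in the ExE matKO libraries, against 38.5% and 19.2% in ExE CTR. The lowest matKO share, 16.7% of 120 reads, was that of replicate 3, the library with the low maternal total, and the groups overlapped. Fzd7 leaned the other way, with 69.6% maternal reads in ExE matKO and 65.7% in ExE CTR. For Wnt7b the maternal share was 43.3% of 1215 reads in ExE matKO and 46.0% of 496 reads in ExE CTR. In morulae Wnt7b had 5 maternal reads of 14 and 4 of 6 in the matKO libraries (35.7% and 66.7%), against 28 of 35 and 19 of 29 in the CTR libraries (80.0% and 65.5%). The 95% exact intervals were 12.8% to 64.9% and 22.3% to 95.7% in matKO and 63.1% to 91.6% and 45.7% to 82.1% in CTR, and the allelic shift did not pass (edgeR adjusted p = 0.779).

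**Figure D5:**
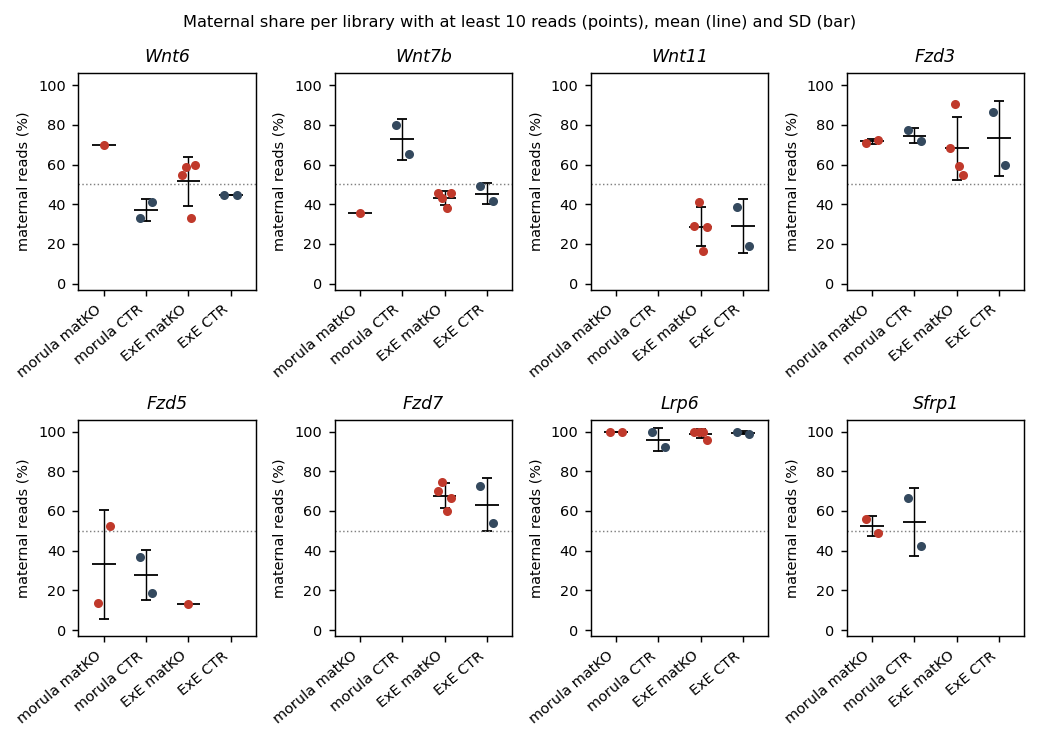
Maternal share of allele-assigned reads (%) of 8 members in each embryo library with at least 10 reads (points; line, mean; bar, SD where a group has 2 or more such libraries), with a dotted line at equal shares. Lrp6 lies between 92.0% and 100.0%, Fzd3 and Fzd7 lie above the line in every library shown, and every Wnt11 library lies below it.

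Beyond the members, 84 other genes of the pathway were followed from lists of WNT processing, R-spondin receptors, other antagonists, the cytoplasmic pathway, nuclear factors, target genes and planar polarity. In FGO KO against CTR 59 of them were tested, 10 rose and 1 fell, where 5.35% of all genes rose and 1.87% fell. The median log2 fold change was 0.23, beside 0.00 over all genes tested. Of the 10 that rose, 4 had under 3 counts in every CTR library, Tpbg among them. Kremen2 (6 and 2 CTR counts), Ascl2 (9 and 4), Tcf7l1 (4 and 2) and Nkd2 (20 and 10) were also too low in CTR to pass the filter alone. All these genes could enter the test only through FGO KO, where they were high. Neither count nor median therefore stands for the 84, whose lists were chosen with earlier results of these data known. The rises lay in 2 other antagonists, 1 R-spondin receptor, 2 nuclear factors, 4 target genes and 1 planar polarity gene, and none of the 17 tested genes of the cytoplasmic pathway was called by edgeR (1 at an unadjusted p under 0.05, 0 by DESeq2). Kremen2, a DKK1 co-receptor, had 6.82 and 5.15 CPM in FGO KO, against 0.228 and 0.0778 CPM in FGO CTR (log2 fold change 5.13 ± 0.50, SE; edgeR adjusted p = 0.00115). Ascl2, a trophoblast regulator and WNT target in the mouse gut, had 10.2 and 4.80 CPM in KO and 0.341 and 0.156 CPM in CTR (4.75 ± 0.51; edgeR adjusted p = 0.00159). Nkd2, an inhibitor of Dishevelled, had 8.41 and 5.91 CPM in KO and 0.759 and 0.389 CPM in CTR (3.52 ± 0.41; edgeR adjusted p = 0.00222). Tpbg, a WNT inhibitor at the cell surface, had 3.77 and 2.93 CPM in KO and 0 and 0.0778 CPM in CTR (6.16 ± 0.74; edgeR adjusted p = 0.00263). None of the 4 had overlapping groups.

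In morula matKO against CTR edgeR called 0 of 29 tested pathway genes, with 3 at an unadjusted p under 0.05, beside 19.8% of all genes, and 0 called by DESeq2. In ExE matKO against CTR it called 0 of 34, with 14 at an unadjusted p under 0.05, beside 13.8% of all genes, and 2 called by DESeq2, which called 212 of all 8386 genes. For the morula minus FGO difference 5 of 59 were called, all negative, beside 2.62% of all genes called, among them Tpbg (−7.77 on the log2 scale; edgeR adjusted p = 0.00444), Kremen2 (−4.68; adjusted p = 0.0073), Ascl2 (−4.86; adjusted p = 0.0169) and Lgr4, an R-spondin receptor (−2.81; adjusted p = 0.0199). For Tpbg, Kremen2 and Ascl2 these values rest on few FGO CTR counts (0 and 2, 6 and 2, and 9 and 4). Tpbg also had only 1 and 4 counts in morula matKO. Between the wild-type stages, 8 of 37 rose and 12 fell in ExE CTR against morula CTR, where 27.8% of all genes rose and 39.7% fell. Ascl2 had 353 and 464 CPM in ExE CTR and 4.15 and 12.0 CPM in morula CTR, and Tcf7l1, a repressive TCF factor, had 41.5 and 43.3 CPM in ExE CTR and 0 and 0.630 CPM in morula CTR. Tcf7l1 passed the filter on low counts only through ExE CTR, where it was high. Btrc, which marks β-catenin for degradation, had 41.2 and 33.5 CPM in ExE CTR, against 402 and 451 CPM in morula CTR, and Tle4, a co-repressor of TCF factors, had 3.84 ± 0.404 CPM in ExE CTR, against 108 ± 3.20 CPM in morula CTR (SD, n = 2 each). Their log2 fold changes were 6.35 ± 0.35 for Ascl2, 7.54 ± 0.62 for Tcf7l1, −2.85 ± 0.19 for Btrc and −4.13 ± 0.31 for Tle4 (SE; edgeR adjusted p of 6.0e-07 or below).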

How the data were processed

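RNA-seq libraries were made with the SMART-Seq v4 and Nextera XT kits, per the labels' protocols, a chemistry that does not mark strand. The authors deposited 1 table of raw counts per gene with 24 columns for 14 libraries, per the file headers. FGO libraries have 1 column each, while morula and ExE libraries have a maternal and a paternal column, which were summed for the tests of expression. The submitters' processing notes list STAR 2.7.3, RSEM 1.3.1 and mm10, among others. The counting tool is not given in the sources used here, nor is the way reads were split by parent. The 4 reciprocal-cross morula samples are not analysed here, so the morula fits hold only matKO and CTR.

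Each comparison was fitted on all genes with edgeR 4.0.16 (TMM, filterByExpr, robust quasi-likelihood F test, Benjamini-Hochberg adjustment over all genes tested) in R 4.3.3. Calls were made at an adjusted p under 0.05. Differences of effect are interaction terms. Allelic shifts are allele-by-genotype terms with a term per library, offsets from autosomal allele totals, on genes averaging 20 reads or more, without the X chromosome in ExE. The fits were tested on simulated counts. Alternatives included DESeq2 1.42.0, no filter, a replicate block and leaving out each library. Intervals are 95% exact intervals, and with the floor of 3 counts cover counting error only. Levels per length were planned for oocytes but no exon lengths were used here. The 36 members, the marker and pathway lists, and the rule for named genes were chosen with earlier results of these data known. The rule names members called in any comparison, those with an unadjusted p under 0.05 in a knockout comparison, those with the highest mean CPM of their class in CTR of a stage, and up to 4 called pathway genes per comparison by smallest p. Values of other members, and of Fzd1, Fzd6 and Fzd8 in oocytes, complete the account. No 2 libraries of a group agreed within counting noise.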

Additional observations from a re-analysis of the deposited data

Results flagged for a closer look

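Fzd1 in ExE matKO was flagged because replicate 1, at 22.7 CPM, lay far from the other matKO libraries at 4.59 to 7.49 CPM, with a gap of 0.840 of the range of the 4 libraries. The other 3 still lay above both ExE CTR libraries. ExE matKO replicate 3 was flagged for a maternal share of reads of 35.8%, against 51.5% to 52.6% in the other matKO libraries, a gap of 0.935 of the range. Such a test flags by chance about 5 in 100 groups, and 8 groups of values were tested. Wnt7b was flagged because the difference of its effects, morula minus FGO, was called, at -5.36 on the log2 scale (edgeR interaction, adjusted p = 0.032). It rests on 20 counts in FGO KO and 1 in FGO CTR, and on 20 counts in morula matKO and 64 in morula CTR.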

How the results depend on the processing

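No result reversed under any alternative run, and of 91 alternative values of the main counts 73 stayed within 1.5 times the value reported and 18 did not. In FGO KO against CTR 2 members were called, 6 with no filter on low counts (also Axin2, Fzd2, Fzd4 and Wnt7b) and 1 to 4 on leaving out each library. Fzd7 was called in each of these fits, and Wnt7a was lost without FGO CTR replicate 2 and in a fit of all 14 libraries (edgeR adjusted p = 0.115). In ExE matKO against CTR 0 members were called, 1 with DESeq2. Without filter the count was 12, not 6, in ExE CTR against morula CTR, and 1, not 0, for the difference of ExE and morula effects. The 1 call of the morula minus FGO difference became 0 to 1 on leaving out each library. At a floor of 10 counts, not 3, 13 members were detected in FGO KO, 4 in morula matKO and 7 in ExE matKO, where 20, 9 and 11 were reported. With the replicate number as a block 5 members were called in FGO (Wnt7a and Fzd7, and also Axin2, Fzd2 and Fzd4 at edgeR adjusted p of 0.00195, 0.0069 and 0.0132) and 2 in ExE (Fzd1 and Fzd7, adjusted p = 4.1e-04 and 0.00528), and the calls over all genes numbered 2021 in FGO against 972 without the block, 310 against 12 in morulae and 923 against 0 in ExE. Deviations of same-numbered libraries correlated at 0.25 in FGO, 0.18 in morulae and 0.24 in ExE, with 2 pairs per stage and no label for a shared origin, so the numbers are not taken to pair the libraries. Maternal or paternal counts alone, chosen after seeing the data, gave 0 members in morulae and ExE for the knockout. The causes of these changes were not tested. With 2 libraries per group and few reads per morula library, members near the floor are limited by depth.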
